A study of Mus musculus with 4 samples.

Results

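Ly6C-low patrolling monocytes of the mouse liver were examined through a gate on transcripts. Barcodes were retained from 200 detected genes upwards and up to a mitochondrial share of 10% of UMIs (unique molecular identifiers, each standing for 1 captured RNA molecule). A retained cell was a member when Ace, Ear2, Treml4, Pglyrp1, Eno3 and Spn together took at least 0.1% of its UMIs and more than Ly6c2, F13a1, Fn1 and Vcan together. Cells with 1% or more of UMIs from H2-Aa, H2-Ab1, H2-Eb1 and Cd74, or 0.1% or more from C1qa, C1qb and C1qc, were left out. The gate held 1087 of 9609 retained cells, or 11.3%. The measured levels of these 17 genes chose the cells, so those levels are given only as a description.

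The cells came from the livers of male wild-type C57BL/6 mice, bought at 8 weeks of age and then fed for 6 weeks either NCD, the normal control feed, or MCD, a feed deficient in methionine and choline, on which mice develop a fatty, inflamed liver. Each diet had 2 libraries of sorted 7AAD- CD45+ Ly6G- CD11b int cells, with F4/80 given as low in the series text and as high in the sample labels. The labels do not say whether a library is 1 mouse or a pool, so the p-values below measure the spread between these libraries, which may be technical. No label gives a preparation batch, and diet and batch cannot be told apart.

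Patrolling monocytes, also called non-classical monocytes, crawl along the inner wall of blood vessels and clear debris and damaged endothelial cells. They arise largely from Ly6C-high classical monocytes, depend on the nuclear receptor Nr4a1 for their development, and use the integrin LFA-1, whose alpha chain is Itgal, to hold on to endothelium. The fractalkine receptor Cx3cr1 supports their survival, and the receptor Fcgr4 binds IgG immune complexes on their surface.

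The gate did not hold one cell type. In 447 of the 1087 members, the markers of neutrophils, eosinophils, basophils, NK and innate lymphoid cells, T cells, B cells and endothelial cells, with S100a8 and S100a9 set aside, together took at least 0.1% of UMIs. Neutrophil markers led in 232 of these cells, endothelial markers in 140, eosinophil markers in 32, NK and innate lymphoid markers in 23, basophil markers in 17, T cell markers in 2 and B cell markers in 1. Pglyrp1 is also a neutrophil gene, Ace an endothelial gene, Ear2 an eosinophil gene and Spn a lymphocyte gene. The other 640 members, called marker-free members below, numbered 141 and 158 on NCD and 146 and 195 on MCD, and made up 66.8% and 59.0% of the gate on NCD and 50.9% and 60.7% on MCD. The name covers only these 7 lists, at under 0.1% of UMIs together. Markers of dendritic cells, Kupffer cells, lipid-associated macrophages and hepatocytes were not used to leave cells out.

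**Figure D1:**
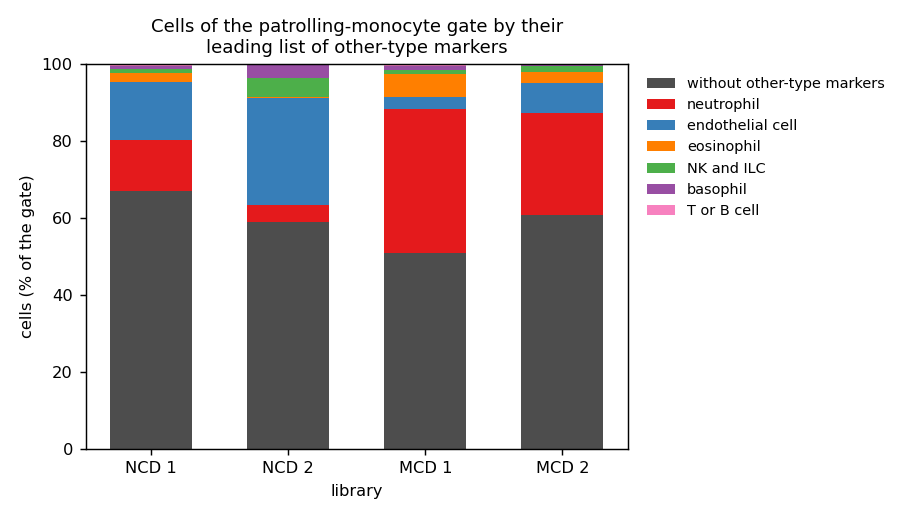
Cells of the gate in each library, as a percentage of the gate, split into those without markers of other cell types and those with them by the leading marker list. Neutrophil markers led in 107 and 85 cells of the MCD libraries against 28 and 12 of the NCD libraries, and endothelial markers in 32 and 74 cells of the NCD libraries against 9 and 25 of the MCD libraries.

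The marker lists also differed between the diets as summed UMIs, which weight each cell by its depth and do not count cells. Summed neutrophil markers ranged from 14771 to 22929 CPM (UMIs of the summed cells scaled to a common total) in the members on NCD and from 1275 to 7555 CPM on MCD, but from 63.6 to 92.7 CPM and from 165 to 225 CPM in the marker-free members. These sums include S100a8 and S100a9, at 11210 and 7445 CPM and at 8075 and 4936 CPM in the members on NCD. Cells led by neutrophil markers went the other way, with 28 and 12 on NCD and 107 and 85 on MCD. Summed endothelial markers ranged from 1841 to 3356 CPM in the members on NCD and from 353 to 876 CPM on MCD, against 98.9 to 124 CPM and 27.0 to 77.1 CPM in the marker-free members. In the marker-free members 3 of 11 neutrophil markers, Ngp, Ltf and Ly6g, had no UMI in any library, whereas all 8 endothelial and all 8 hepatocyte markers had at least 1. Results are therefore given for all members and for the marker-free members. No doublets were removed.

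Cells lay on both sides of the threshold of 0.1%. Just inside it stood 118 members, of which 61.0% carried other-type markers and 56.8% had a UMI of Csf1r, the receptor for the monocyte growth factor CSF1. Just outside stood 203 cells, with 70.9% and 43.3%. A member's 6 gate genes rested on a median of 5 UMIs in each NCD library and of 11 and 17 in the MCD libraries, and took a median of 0.194% and 0.187% of UMIs on NCD and 0.170% and 0.190% on MCD.

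Depth and cell quality differed between the diets. The libraries held 7518597 and 7428431 UMIs on NCD and 32975974 and 37772284 on MCD, and summed member UMIs were 585167, 787235, 2044108 and 2945349 in the same order. All members had medians of 1773 and 2155.5 UMIs on NCD against 4770 and 8131 on MCD. Marker-free members had medians of 1738 and 1808 UMIs on NCD against 11074 and 10529 on MCD, a wider gap. Members with other-type markers had medians of 1943.5 and 3505.5 UMIs on NCD and 1333 and 1494.5 on MCD. The mitochondrial limit removed 37.2% and 33.6% of NCD barcodes and 11.6% and 9.44% of MCD barcodes. Any pair of libraries shared 4 to 12 barcodes, and no member barcode was shared.

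Known patrolling genes that the gate did not use stood high in these cells. Of 29 listed identity genes, Cd244a was not in the gene tables and 26 reached 10 CPM. Of the 26, 25 were higher in the members than in the other retained cells of all 4 libraries, with a median log2 ratio of 1.42, where 2582 of 8577 measured genes were higher in all 4 and the median was 0.08. Between the marker-free members and the classical-gated cells, chosen by the mirrored rule on Ly6c2, F13a1, Fn1 and Vcan, 25 of the 26 were again higher in all 4 libraries, with a median of 1.72. Of the 8577 measured genes 1665 were higher in all 4, with a median of -0.003. The classical-gated cells of this contrast were not filtered for other-type markers. The gate made both contrasts, so neither carries a test.

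Cd300e, an activating receptor of the CD300 family, had log2 ratios (10 CPM added to each level) of 3.14, 3.28, 2.98 and 2.41 in NCD 1, NCD 2, MCD 1 and MCD 2. For Fcgr4 the ratios were 2.77, 2.99, 2.01 and 2.13, and for S1pr5, a sphingosine-1-phosphate receptor that guides exit from bone marrow, 3.14, 2.79, 2.12 and 1.90. For Itgal they were 1.87, 2.01, 1.28 and 1.44. In these 4 genes both NCD ratios exceeded both MCD ratios, while all of them stayed above 0. The added 10 CPM shrinks ratios of low levels most. The diet effects of both gates are compared below, where Cd300e showed no greater fall in the members. Ear2, one of the gate genes, stood at 467 and 512 CPM on NCD and 651 and 551 CPM on MCD in the marker-free members, and Ly6c2, which encodes the Ly6C antigen of classical monocytes, at 98.9 and 66.5 CPM on NCD and 94.8 and 136 CPM on MCD against 786 and 749 CPM on NCD and 551 and 859.8 CPM on MCD in the classical-gated cells.

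**Figure D2:**
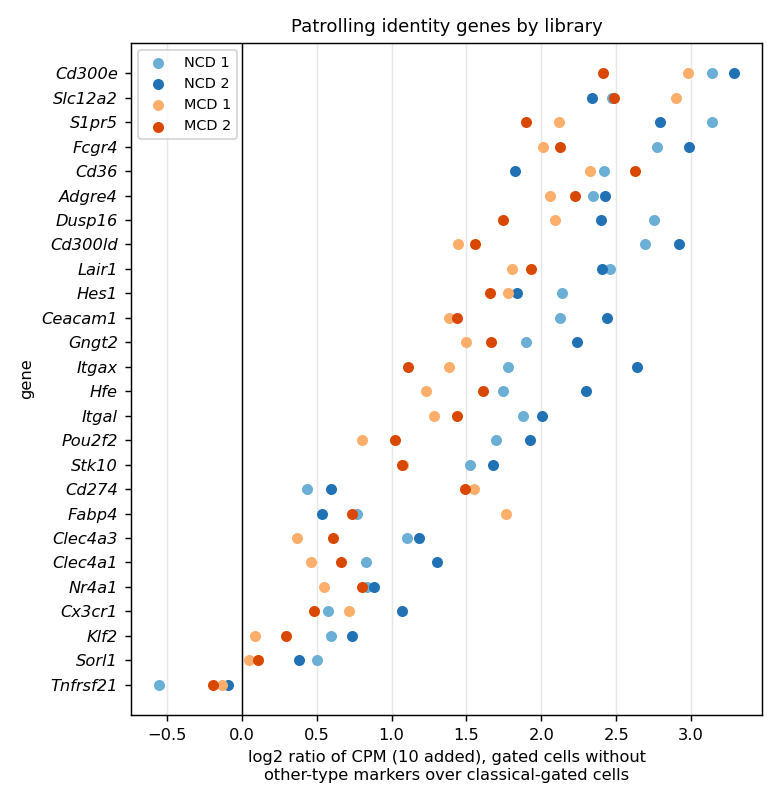
Log2 ratio of CPM between marker-free members and classical-gated cells (x axis, 10 CPM added to each level) for 26 patrolling identity genes (y axis), with 1 point per library. All points lie above 0 except those of Tnfrsf21, which was lower in the marker-free members of all 4 libraries.

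The 12 genes outside the gate that most set the members apart from other cells were S100a9, S100a8, Fcgr4, Dusp16, Adgre4, Ceacam1, Lair1, Cd300ld, Cd36, Cyth3, Pag1 and Itgal. The first pair, which encodes the neutrophil protein calprotectin, was low once cells with other-type markers were left out. S100a9 stood at 8075 and 4936 CPM on NCD and 2428 and 213 CPM on MCD in the members and at 12.4 and 5.78 CPM on NCD and 5.40 and 43.8 CPM on MCD in the marker-free members. The other 10 genes were higher than in other cells of every library in the marker-free members too, with the lowest log2 ratio of the 4 libraries between 1.15 for Cd36 and 1.90 for Fcgr4.

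The share of members among retained cells was lower on MCD, within limits that this number of libraries cannot test. It was 12.2% (95% Clopper-Pearson interval 10.7 to 13.8%) and 15.01% (13.4 to 16.7%) on NCD and 9.73% (8.68 to 10.9%) and 10.2% (9.19 to 11.3%) on MCD. These intervals cover counting error only. As a share of both monocyte gates the members made up 37.3% and 37.1% on NCD and 22.7% and 20.3% on MCD, so the MCD mean was 0.578 times the NCD mean. The diets did not overlap in either measure, and the exact two-sided permutation p was 0.33, the smallest that 2 against 2 libraries allows. Marker-free members were 8.13% and 8.85% of retained cells on NCD and 4.95% and 6.21% on MCD. A share in a sorted sample depends on the sort and on how many cells of other types passed it.

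The diet effect was tested on UMIs summed over the members of each library, with the library as the replicate. Of 8491 genes tested, 1287 were higher and 1285 lower on MCD at an adjusted p below 0.05 (edgeR quasi-likelihood F test, Benjamini-Hochberg), which is 30.3% in all, 15.2% higher and 15.1% lower. In the marker-free members 912 genes were higher and 884 lower of 7112 tested, or 25.3%, 12.8% and 12.4%. The counts of listed genes below are to be read against these shares. Both fits called 1380 genes in the same direction, 53.7% of the members' calls and 76.8% of the marker-free calls, and 430 of the members' calls were not tested in the marker-free cells because too few UMIs were left. Without NCD replicate 2 the count fell from 2572 to 1052 in the members, and it ranged from 1224 to 1443 in the marker-free members when each library was left out in turn.

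Fold changes below are relative to TMM scaling. With plain library totals the median of all genes moved by 0.15 in the members and by 0.37 in the marker-free members on the log2 scale, and the split became 1649 higher against 982 lower and 1749 against 438. Fold changes also moved with base composition. The median log2 change in the members was -0.39 in the 1697 genes of lowest transcript GC content and 0.63 in the 1697 of highest. Levels below are TMM-normalised CPM, and log2 fold changes (MCD over NCD, ± standard error) carry adjusted p-values from the same edgeR test. With 2 libraries per diet, that test draws each gene's spread towards the spread of all genes. Very small p-values therefore rest on this shared estimate too, not on a gene's own libraries alone. UMI counts from the 3' end give no comparison of levels between genes of unlike capture.

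The patrolling identity genes were, as a list, lower on MCD. In the marker-free members 18 of the 26 tested fell and 1 rose, with a median log2 change of -0.82 against 0.02 over all genes. In all members 14 fell and 2 rose, with a median of -0.47 against 0.00. In all classical-gated cells, not filtered for other-type markers, 12 of 26 tested fell and 4 rose, with a median of -0.46 against 0.04 over all genes. The fall was therefore not confined to the members. Within the marker-free members, 14 to 19 fell and 0 to 3 rose under every alternative setting run there, and the median stayed between -0.89 and -0.47. The median of -0.47 belongs to plain library totals, where the median of all genes was 0.37. A limit of 5% mitochondrial UMIs left 32 and 37 members on NCD, and there several identity genes turned sign in all members, among them Cx3cr1 (0.50), Cd300ld (0.19), Hfe (0.16), Dusp16 (0.14) and Hes1 (0.07), none past the threshold. Fcgr4 (-0.23) and Clec4a3 (-0.002) kept their sign but lost their calls. Medians of mitochondrial UMIs were 7.59% and 7.28% in the members on NCD and 4.12% and 3.47% on MCD, and the part of this gap was not tested.

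Itgal (ENSMUSG00000030830) was measured at 2250.0 and 2729.5 normalised CPM on NCD and 829.6 and 911 normalised CPM on MCD in the marker-free members. Both MCD libraries were below both NCD libraries, and the change was -1.52 ± 0.12 (adjusted p = 1.42e-09, edgeR), with -1.13 ± 0.14 in all members (adjusted p = 0.00139). Fcgr4 stood at 484 and 492 on NCD and 160.1 and 179 on MCD, a change of -1.52 ± 0.15 (adjusted p = 8.37e-08, edgeR). Cd300e stood at 325 and 335 on NCD and 76.3 and 55.1 on MCD and changed by -2.34 ± 0.19 (adjusted p = 3.06e-09, edgeR). For each of these genes the MCD libraries lay far below the NCD libraries and close to each other. At a limit of 5% mitochondrial UMIs the change of Fcgr4 in all members shrank to -0.23 (adjusted p = 0.75, edgeR). Itgal and Cd300e kept their calls there. That limit was not run for the marker-free members.

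Cx3cr1 was at 477 and 528 normalised CPM on NCD and 277 and 252 normalised CPM on MCD in the marker-free members, a change of -0.93 ± 0.14 (adjusted p = 4.70e-05, edgeR). In all members the change was -0.51 ± 0.14 (adjusted p = 0.0257, edgeR). The diets did not overlap in either set, but in all members the call was lost under DESeq2 and without NCD replicate 1, MCD replicate 1 or MCD replicate 2. Fabp4, a fatty acid binding protein that endothelial cells also make, fell by 2.98 ± 0.21 (adjusted p = 3.99e-10, edgeR), at 372 and 629 normalised CPM on NCD and 53.4 and 73.1 normalised CPM on MCD. Summed endothelial markers in the marker-free members were also lower on MCD, as given above, and their part in the Fabp4 change was not tested.

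Further identity genes that fell in the marker-free members included the receptors Cd300ld (-1.51 ± 0.15), Lair1 (-0.83 ± 0.16), the C-type lectins Clec4a1 (-1.21 ± 0.13) and Clec4a3 (-1.30 ± 0.13), the adhesion G-protein-coupled receptor Adgre4 (-0.82 ± 0.14), the phosphatase Dusp16 (-1.19 ± 0.15), the iron regulator Hfe (-1.29 ± 0.17) and the scavenger receptor Cd36 (-0.90 ± 0.18), each with an adjusted p of at most 6.57e-04 by edgeR. With the GC trend removed Cd36 no longer passed (adjusted p = 0.0737, edgeR). In all members the calls on Adgre4 and Lair1 were lost when any 1 library was left out, and also with the GC trend removed. Calls on S1pr5 (-0.65 ± 0.22), Ceacam1 (-0.54 ± 0.17) and Klf2 (-0.57 ± 0.13) were held less firmly. All 3 missed the threshold in all members at full depth, and in marker-free members with cells thinned to 1000 UMIs. In all members with thinned cells Klf2 passed as a rise, at 0.46 (adjusted p = 0.0441, edgeR).

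Nr4a1 (ENSMUSG00000023034), on which the lineage depends and which is also an immediate early gene, went the other way. It stood at 1593 and 1612 normalised CPM on NCD and 1964 and 2437 normalised CPM on MCD in the marker-free members and rose by 0.46 ± 0.12 (adjusted p = 0.00547, edgeR). In all members it rose by 0.70 ± 0.15 (adjusted p = 0.0111, edgeR). The MCD libraries lay above the NCD libraries in both sets, but the marker-free value turned to -0.12 when the GC trend was removed, and without MCD replicate 2 it missed the threshold at 0.34 (adjusted p = 0.0689, edgeR). In all members it missed the threshold under the same settings, at 0.15 and 0.59.

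Cells with a UMI of a gene were also counted after each cell had been thinned to 1000 UMIs, since depth per cell differed between the diets. Itgal was then detected in 80.7% and 89.7% of marker-free members on NCD and in 57.6% and 57.5% on MCD. In endothelial cells of the same libraries, which serve as the background, it was detected in 41.2%, 37.8%, 25.5% and 21.0%. The members stood above the background in every library, but the background was lower on MCD too. At full depth the shares were 90.8%, 95.6%, 97.9% and 96.9%, with both MCD libraries above both NCD libraries, and the endothelial shares were 66.2%, 64.3%, 60.2% and 53.4%.

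Cx3cr1 was detected in 33.6% and 35.5% of thinned marker-free members on NCD and in 20.8% and 25.9% on MCD, against 14.3%, 11.1%, 8.51% and 5.61% of thinned endothelial cells. At full depth the Cx3cr1 shares were 53.9%, 53.2%, 74.7% and 80.0%. The thinned shares and the summed levels of both genes were lower on MCD in the marker-free members, and the full-depth shares were not. The thinned endothelial shares of both genes were lower on MCD as well, and a drop beyond that of the background was not tested. Thinning left out 1, 3, 2 and 2 marker-free members, and full-depth medians were 3931, 3475.5, 5520.5 and 7694.5 UMIs in the endothelial cells.

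**Figure D3:**
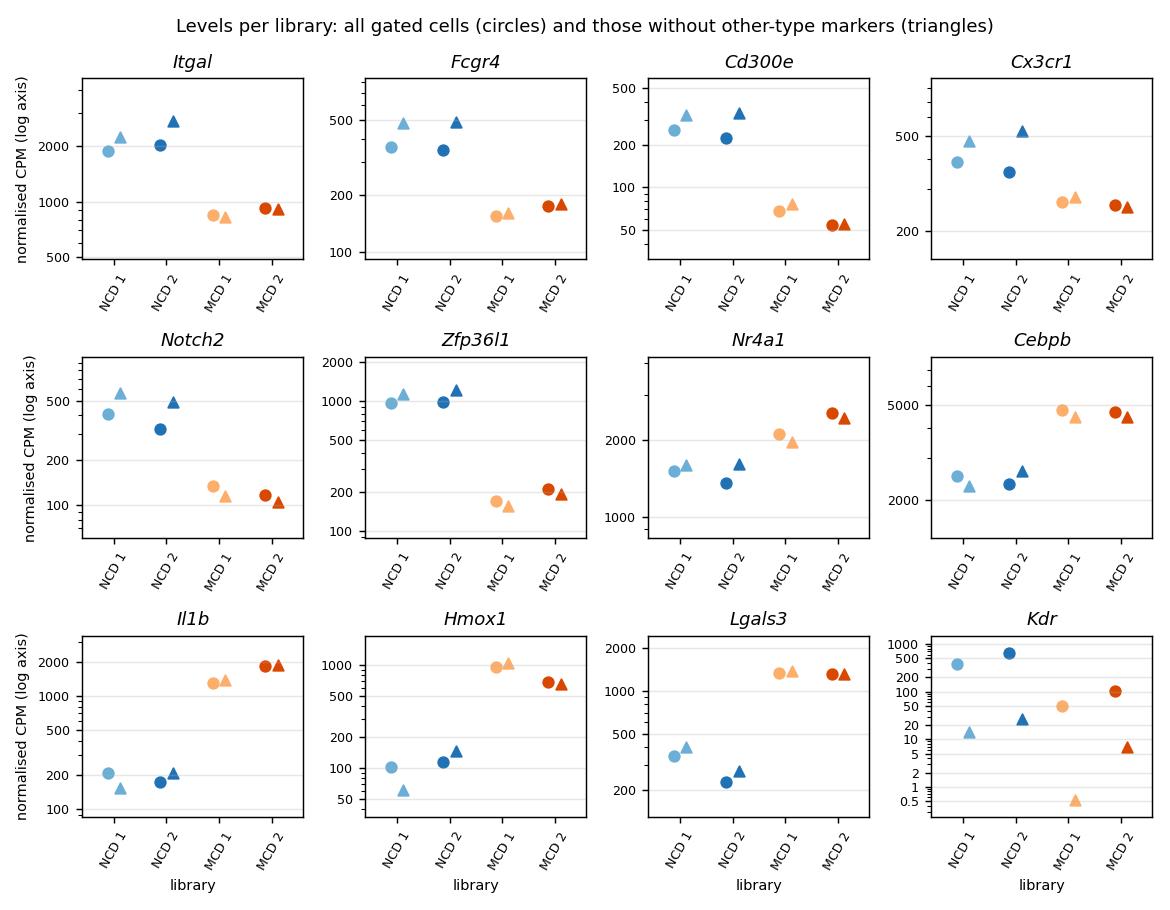
Levels of 12 genes in each library as TMM-normalised CPM on log axes, in all members (circles) and in marker-free members (triangles). In the 6 genes from Itgal to Zfp36l1 both MCD libraries lie below both NCD libraries, from Nr4a1 to Lgals3 they lie above them, and for the endothelial gene Kdr the marker-free members lie far below all members.

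The transcription factors that set monocyte fate moved in both directions. Of 29 tested in the marker-free members, 10 rose and 14 fell, with a median of -0.40, and in all members 10 rose and 10 fell. With the GC trend removed, 6 rose and 12 fell in the marker-free members. Cebpb, a factor needed for the survival of patrolling monocytes in mice, stood at 2286 and 2625 normalised CPM on NCD and 4444 and 4462 normalised CPM on MCD, with both MCD libraries above both NCD libraries, and rose by 0.86 ± 0.10 (adjusted p = 1.37e-06, edgeR). With the GC trend removed this value turned to -0.11. Cebpa, a myeloid lineage factor, was at 36.1 and 45.6 on NCD and 129.6 and 124 on MCD and rose by 1.62 ± 0.26 (adjusted p = 6.12e-05, edgeR).

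Irf5, a mediator of Toll-like receptor signals, rose by 1.40 ± 0.18 and Runx3, a regulator of leukocyte differentiation, by 1.61 ± 0.27 (adjusted p = 2.99e-06 and 9.11e-05, edgeR). Spi1, which encodes the myeloid master factor PU.1, rose by 0.89 ± 0.14 (adjusted p = 4.13e-05, edgeR), but missed the threshold with the GC trend removed, at 0.22. The other nuclear receptors of the Nr4a family rose as well, Nr4a2 by 0.81 ± 0.27 and Nr4a3 by 2.27 ± 0.59 (adjusted p = 0.0288 and 0.00696, edgeR). Nr4a3 was scarce, at 3.61 and 9.77 normalised CPM on NCD and 26.7 and 39.0 normalised CPM on MCD, and its call was lost under DESeq2, without MCD replicate 2 and without NCD replicate 1. The call on Nr4a2 was lost under DESeq2, without MCD replicate 2 and without NCD replicate 2.

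Notch2, the receptor through which blood vessel ligands drive conversion to Ly6C-low monocytes in mice, fell by 2.25 ± 0.16 (adjusted p = 3.07e-10, edgeR), at 563 and 489 normalised CPM on NCD and 116 and 105 normalised CPM on MCD. Its target Hes1 fell by 0.99 ± 0.14 (adjusted p = 9.56e-06, edgeR), at 628 and 648 on NCD and 338 and 306 on MCD. The diets were well apart for both genes. Pparg, a lipid-sensing nuclear receptor, fell (-1.67 ± 0.24), as did Mef2c (-1.15 ± 0.18), the Wnt effector Tcf7l2 (-1.10 ± 0.17), the repressor Bcl6 (-0.97 ± 0.19) and Klf4 (-0.93 ± 0.13), a factor needed for monocyte differentiation (adjusted p at most 7.51e-04, edgeR).

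Genes of the classical monocyte program rose more often than they fell. In the marker-free members 10 of 20 tested rose and 2 fell, with a median of 0.84, and in all members 12 of 21 rose and 1 fell. In all classical-gated cells, not filtered for other-type markers, 8 of 21 rose and 3 fell, with a median of 0.24. Hp, haptoglobin, which binds free haemoglobin, stood at 39.7 and 55.4 normalised CPM on NCD and 599 and 471 normalised CPM on MCD and rose by 3.48 ± 0.23 (adjusted p = 1.01e-10, edgeR). Chil3, a chitinase-like protein, was at 169.8 and 173 on NCD and 1431 and 1027 on MCD and rose by 2.84 ± 0.18. In all members its change was 2.40, and 0.60 at 5% mitochondrial UMIs (adjusted p = 0.272, edgeR). Cd14, the lipopolysaccharide co-receptor, was at 83.1 and 61.9 on NCD and 267 and 566 on MCD and rose by 2.54 ± 0.32. The MCD libraries were above the NCD libraries throughout, and the 2 MCD libraries differed from each other most for Cd14. Hp, Chil3 and Cd14 rose in the unfiltered classical-gated cells too, by 3.17, 2.08 and 2.17. The differences that follow are from marker-free cells and cannot be read off these values. Between marker-free cells of both gates the diet effect was more positive in the patrolling gate for Chil3 (1.28). The difference missed the threshold for Hp and Cd14. Of the 20 listed genes 8 were more positive and 0 more negative, against 2.53% and 1.03% of all genes.

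S100a4, a calcium-binding protein of motile cells, rose by 1.51 ± 0.12, Lyz2, lysozyme, by 1.17 ± 0.11 and S100a6 by 0.52 ± 0.11 (adjusted p at most 0.00156, edgeR). S100a6 missed the threshold with the GC trend removed. Cells with a UMI of Ly6c2, F13a1, Fn1 or Vcan made up 27.7% and 22.2% of marker-free members on NCD and 69.2% and 82.1% on MCD, at the unequal depths given above, and their part in these rises was not tested.

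Receptors that guide movement changed unevenly. Of 13 chemotactic receptors tested in the marker-free members 6 rose and 3 fell, and of 15 in all members 7 rose and 3 fell. Over all genes 12.8% rose and 12.4% fell in the marker-free members, and 15.2% and 15.1% in all members. Cmklr1, the receptor for chemerin, stood at 7.52 and 3.93 normalised CPM on NCD and 54.3 and 47.4 normalised CPM on MCD in the members and rose by 3.20 ± 0.36 (adjusted p = 0.00121, edgeR), a change that missed the threshold with cells thinned to 1000 UMIs. Ltb4r1, the high-affinity receptor for leukotriene B4, was at 18.1 and 22.8 on NCD and 100.3 and 132 on MCD in the marker-free members and rose by 2.51 ± 0.33 (adjusted p = 6.12e-06, edgeR). Ccrl2, an atypical chemerin-binding receptor, rose by 2.05 ± 0.15 (adjusted p = 1.05e-09, edgeR), at levels of 166 and 182 on NCD and 729.8 and 713 on MCD. Cxcr4, which holds cells in marrow and vessel niches, fell by 0.85 ± 0.13 (adjusted p = 3.71e-05, edgeR).

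Among 21 adhesion and motility genes tested in the marker-free members 5 rose and 9 fell, and among those in all members 6 rose and 4 fell. The shares of all genes were 12.8% up and 12.4% down, and 15.2% and 15.1% in all members. Icam1, the ligand of LFA-1, stood at 47.0 and 52.1 normalised CPM on NCD and 252 and 152 normalised CPM on MCD and rose by 2.01 ± 0.30 (adjusted p = 2.41e-05, edgeR), while the LFA-1 chain Itgal fell. Pecam1, an adhesion molecule of leukocytes and endothelium, fell by 3.22 ± 0.34 (adjusted p = 1.86e-07, edgeR), and Cd81, a tetraspanin, fell by 2.25 ± 0.42. At 5% mitochondrial UMIs both lost their calls in all members, Pecam1 at -0.30 and Cd81 at -1.09. Endothelial cells make both, 3 of 5 endothelial markers tested in the marker-free members fell, and their part was not tested.

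Inflammatory cytokine genes rose in most cases that passed. Of 17 tested in the marker-free members 11 rose and 1 fell, with a median of 1.08, and of 19 in all members 8 rose and 1 fell. Il1b, the gene of the cytokine interleukin-1 beta, stood at 155 and 208 normalised CPM on NCD and 1382 and 1855 normalised CPM on MCD, with no overlap between the diets, and rose by 3.15 ± 0.17 (adjusted p = 6.95e-12, edgeR). Gdf15, a stress-induced cytokine, rose by 3.06 ± 0.56 at low levels of 7.22 and 3.26 on NCD and 44.3 and 42.9 on MCD. Ccl5, a chemokine that lymphocytes make in bulk, was the exception. It stood at 932 and 19.5 on NCD and 25.1 and 101 on MCD in the marker-free members, where the diets overlapped, and its change of -2.83 ± 0.64 turned to 1.77 without NCD replicate 1.

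Cxcl2, a neutrophil-attracting chemokine, stood at 123 and 111 normalised CPM on NCD and 796 and 835 normalised CPM on MCD in the marker-free members and rose by 2.81 ± 0.17 (adjusted p = 2.24e-11, edgeR). It is named here for its promoter and was chosen after its values were seen, as were Srxn1 and Txnrd1 below. Of 16 matched cytokine genes, 6 hold a kappaB-like match (GGG, any 2 bases, then TTTCC) on either strand of a promoter, against 1.63% of 32851 promoters. Promoters were taken from RefSeq (GRCm38.p6), 250 bases before to 50 after the start. The 6 counts genes and the 1.63% single promoters, which are unlike units. The promoter of Cxcl2, at chr5:90903649-90903948 on the plus strand, holds 2 matches, shown in capitals, and is printed as that of a gene that rose. Of the other 5 genes with a match, Il1rn rose by 1.73 ± 0.38 (adjusted p = 0.00165, edgeR), Ccl9 missed the threshold at 0.26, and Il6, Cxcl1 and Cxcl3 did not pass the filter on low counts in the marker-free members.

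Cxcl2: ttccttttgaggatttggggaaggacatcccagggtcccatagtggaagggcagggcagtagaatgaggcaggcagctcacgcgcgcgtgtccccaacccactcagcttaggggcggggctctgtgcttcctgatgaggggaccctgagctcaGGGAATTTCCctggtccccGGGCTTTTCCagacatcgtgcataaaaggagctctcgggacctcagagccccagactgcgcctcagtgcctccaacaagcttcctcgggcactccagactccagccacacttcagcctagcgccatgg

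Signalling receptors of the paired and CD300 families moved apart, with 8 of 17 up and 4 down in the marker-free members and 9 of 18 up and 4 down in all members. Trem1, which amplifies Toll-like receptor signals, stood at 7.22 and 16.3 normalised CPM on NCD and 91.2 and 151 normalised CPM on MCD and rose by 3.34 ± 0.44 (adjusted p = 5.68e-06, edgeR). Trem2, a lipid-binding receptor of macrophages, was at 21.7 and 9.77 on NCD and 104 and 100.2 on MCD and rose by 2.71 ± 0.35 (adjusted p = 4.55e-06, edgeR). The receptors that fell were Cd300e, Cd300ld, Lair1 and Lilra5, the last with -2.19 ± 0.24, and 3 of these 4 are identity genes described above. Among 20 tested Toll-like receptor and nucleic acid sensing genes 5 rose and 1 fell in the marker-free members, with Cd14 among the 5, and 6 rose and 0 fell in all members. For these lists the shares of all genes were 12.8% up and 12.4% down, and 15.2% and 15.1% in all members. Of 13 Fc receptor and signalling genes tested in each, 2 rose and 3 fell in the marker-free members, where Fcer1g, the common gamma chain of Fc receptors, and Lyn, a kinase that signals below them, fell with Fcgr4. In all members 8 rose and 2 fell. With the GC trend removed the counts became 0 up and 4 down in the marker-free members and 3 up and 3 down in all members, and with plain library totals 8 rose and 2 fell in both.

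Targets of NRF2, the factor that switches on antioxidant genes, rose in both sets of cells. Of 12 tested, 8 rose and 0 fell in the marker-free members, with a median of 1.25, and 8 rose and 0 fell in all members, with a median of 1.07. Hmox1, haem oxygenase, stood at 61.4 and 147 normalised CPM on NCD and 1045 and 651 normalised CPM on MCD in the marker-free members and rose by 3.0 ± 0.26 (adjusted p = 7.92e-09, edgeR). Ftl1, the ferritin light chain, was at 1065 and 990.2 on NCD and 5870.2 and 5629.5 on MCD and rose by 2.48 ± 0.11 (adjusted p = 2.98e-13, edgeR). Slc7a11, which imports cystine for glutathione synthesis, was at 32.5 and 48.9 on NCD and 231 and 196 on MCD and rose by 2.37 ± 0.25 (adjusted p = 2.74e-07, edgeR). For all 3 genes both MCD libraries lay above both NCD libraries. Among iron handling genes, which share Hmox1 and Ftl1 with the NRF2 list and Hp with the classical monocyte list, 5 of 8 tested rose and 1, Hfe, fell in the marker-free members, and 5 of 10 rose and 2 fell in all members.

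Srxn1, sulfiredoxin, and Txnrd1, thioredoxin reductase, rose by 2.00 ± 0.44 and 1.77 ± 0.24 in the members (adjusted p = 0.0116 and 0.00185, edgeR). The call on Srxn1 was lost under DESeq2 in all members and without NCD replicate 2 in the marker-free members. Prdx5, a peroxiredoxin, rose by 3.0 ± 0.16 at 159 and 147 normalised CPM on NCD and 1336 and 1107 normalised CPM on MCD in the marker-free members, and Gpx4, which removes lipid peroxides, by 3.15 ± 0.27 at 18.1 and 39.1 on NCD and 252 and 267 on MCD. The core of the antioxidant response element, TGACNNNGC on either strand, stands in the promoters of 5 of 11 matched NRF2 target genes and in 12.4% of 32851 promoters. The first count is of genes, where a match at any annotated start is enough, and the share is of single promoters. Genes with several starts thus have more room for a match. The promoters of Srxn1, at chr2:152105274-152105573, and Txnrd1, the annotated start at chr10:82858956-82859255, both on the plus strand, are shown with the match in capitals, which reads as the core on the minus strand. The other 2 annotated starts of Txnrd1 hold no match. Both are printed as promoters of genes that rose. Of the other 3 genes with a match, Gclm and Prdx1 missed the threshold, at 0.35 and 0.34 in the marker-free members and 0.50 and 0.26 in all members, and Me1 did not pass the filter on low counts. A match describes letters and shows no binding. The half-site AAAGGTCA of the Nr4a receptors was in 0 of 24 matched identity gene promoters and in 1.51% of all promoters.

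Srxn1: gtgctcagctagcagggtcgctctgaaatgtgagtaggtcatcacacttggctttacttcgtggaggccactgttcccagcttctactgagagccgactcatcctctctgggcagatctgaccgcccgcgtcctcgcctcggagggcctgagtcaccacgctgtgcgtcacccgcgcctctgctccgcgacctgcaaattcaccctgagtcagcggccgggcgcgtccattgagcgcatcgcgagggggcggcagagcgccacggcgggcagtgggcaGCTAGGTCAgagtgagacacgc
Txnrd1: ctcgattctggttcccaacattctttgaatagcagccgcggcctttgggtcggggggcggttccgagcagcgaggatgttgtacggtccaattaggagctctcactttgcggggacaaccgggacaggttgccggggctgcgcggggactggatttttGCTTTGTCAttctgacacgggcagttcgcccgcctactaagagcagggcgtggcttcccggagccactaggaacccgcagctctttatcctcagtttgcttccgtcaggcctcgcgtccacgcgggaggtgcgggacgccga

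Lipid-associated macrophage genes, the set that macrophages of fatty liver and fat tissue share, rose. Of 16 tested in the marker-free members 12 rose and 0 fell, with a median of 1.59, and in all members 10 rose and 1 fell, with a median of 1.10. Cells with markers of lipid-associated macrophages were not left out of the marker-free members. There these markers together ranged from 28.9 to 74.1 CPM on NCD and from 278 to 283 CPM on MCD. The part of such macrophages in the rise was not tested. Gpnmb, a lysosomal glycoprotein, had 0 UMIs in marker-free members on NCD and 79 on MCD, which is at least 4.37-fold higher against a floor of 3 counts over the NCD libraries. Lgals3, galectin-3, stood at 404 and 270.3 normalised CPM on NCD and 1383 and 1316 normalised CPM on MCD and rose by 2.01 ± 0.15 (adjusted p = 1.01e-09, edgeR). Capg, an actin-capping protein, rose by 2.16 ± 0.30 and Apoe, apolipoprotein E, by 1.55 ± 0.13 (adjusted p = 1.17e-05 and 7.77e-09, edgeR). Apoe stood at 1004 and 1149.8 on NCD and 2677 and 3618 on MCD, with the MCD libraries above the NCD libraries.

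Of 21 lipid handling genes tested in the marker-free members 8 rose and 4 fell, and of 22 in all members 7 rose and 3 fell. Across all genes 12.8% rose and 12.4% fell in the marker-free members, and 15.2% and 15.1% in all members. Plin2, which coats lipid droplets, stood at 159 and 117 normalised CPM on NCD and 338 and 452 normalised CPM on MCD and rose by 1.53 ± 0.20 (adjusted p = 4.55e-06, edgeR), while Fabp4 and Cd36 fell. Lysosomal genes rose in 12 of 24 and fell in 0 of 24 cases in the marker-free members, and in 9 and 1 of 24 in all members. The proteases Ctsz, at 155 and 189 normalised CPM on NCD and 633 and 618 normalised CPM on MCD, and Ctsd, at 112 and 97.7 on NCD and 315 and 317 on MCD, rose by 1.86 ± 0.16 and 1.59 ± 0.19 (adjusted p = 8.60e-09 and 1.05e-06, edgeR). The diets did not overlap for either gene.

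Genes of glycolysis rose in 10 of 18 cases and fell in 1 in the marker-free members, with a median of 1.07, and rose in 12 of 19 and fell in 0 in all members. Eno1, enolase, stood at 86.7 and 91.2 normalised CPM on NCD and 391 and 311 normalised CPM on MCD and rose by 1.97 ± 0.20, Pkm, pyruvate kinase, by 1.69 ± 0.18 and Gapdh by 1.27 ± 0.14 (adjusted p at most 4.17e-07, edgeR). Genes of oxidative phosphorylation moved in both directions, with 5 up and 9 down of 20 in the marker-free members and 6 up and 6 down in all members. Uqcrc1, a complex III core subunit, rose by 1.43 ± 0.28, and Ndufa4 and Cox7a2, small subunits of the chain, fell, with -1.02 ± 0.15 and -0.95 ± 0.15. Cytosolic ribosomal protein genes fell in 54 and rose in 15 of 82 cases in the marker-free members, with a median of -0.88, and fell in 39 and rose in 17 in all members. These short transcripts often have near-identical pseudogene copies, to which the counting could assign reads, so their values are uncertain.

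The diet lacks methionine and choline, and genes of their metabolism moved in both directions, with 3 up and 3 down of 12 tested in the marker-free members and 3 up and 3 down of 14 in all members. Over all genes the shares were 12.8% up and 12.4% down, and 15.2% and 15.1% in all members. Amd1, the decarboxylase that turns the methionine product S-adenosylmethionine to polyamine synthesis, stood at 296 and 248 normalised CPM on NCD and 33.1 and 49.7 normalised CPM on MCD and fell by 2.68 ± 0.21 (adjusted p = 1.80e-09, edgeR). Sms, spermine synthase, fell by 1.26 ± 0.30 and Odc1, ornithine decarboxylase, rose by 1.56 ± 0.35 (adjusted p = 0.00332 and 0.00207, edgeR). Odc1 missed the threshold without NCD replicate 2, at 1.22 (adjusted p = 0.054).

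Of 17 survival and apoptosis genes tested in the marker-free members 3 rose and 1 fell, and of 18 in all members 6 rose and 1 fell. Over all genes 12.8% rose and 12.4% fell in the marker-free members, and 15.2% and 15.1% in all members. By its count the list did not stand out in the marker-free members. Bak1 and Bcl2l11, which promote cell death, rose by 1.62 ± 0.31 and 1.51 ± 0.31, and Xiap, a caspase inhibitor, fell by 1.04 ± 0.19 (adjusted p = 4.89e-04, 0.00106 and 3.07e-04, edgeR), though Xiap missed the threshold with the GC trend removed. Immediate early genes rose in 11 and fell in 4 of 19 cases in the marker-free members and rose in 12 and fell in 1 in all members. With the GC trend removed these became 5 up and 4 down in the marker-free members and 4 up and 4 down in all members. Atf3, a stress-induced factor, stood at 386 and 375 normalised CPM on NCD and 1165 and 1366 normalised CPM on MCD and rose by 1.73 ± 0.14 (adjusted p = 1.70e-09, edgeR). Ier3, an early response gene, was at 25.3 and 29.3 on NCD and 218 and 257 on MCD and rose by 3.12 ± 0.27. Heat shock genes rose in 7 and fell in 2 of 13 cases in the marker-free members, and rose in 5 and fell in 1 in all members.

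In the integrated stress response list 5 of 10 genes tested rose and 1 fell in the marker-free members, and 6 of 11 rose and 1 fell in all members. For the lists of this paragraph the shares of all genes were 12.8% up and 12.4% down, and 15.2% and 15.1% in all members. Atf4, its central factor, rose by 0.86 ± 0.17 and lost the call with the GC trend removed, and Ddit4, an inhibitor of mTOR signalling, fell by 1.76 ± 0.21 (adjusted p = 1.00e-06, edgeR), at 181 and 287 normalised CPM on NCD and 65.6 and 72.3 normalised CPM on MCD. Interferon-stimulated genes showed little movement in the members, with 1 up and 1 down of 21. In the marker-free members 2 rose and 5 fell of 21, a count that ranged from 0 up and 4 down without MCD replicate 2 to 5 up and 3 down without MCD replicate 1, with 13 and 15 genes tested, and each MCD library decides it. Efferocytosis and complement genes rose in 5 and fell in 1 of 9 cases in the marker-free members and rose in 4 and fell in 3 of 12 in all members. Macrophage maturation genes rose in 4 and fell in 1 of 7 cases and in 4 and 3 of 10. Of the cell cycle list 4 genes could be tested in the marker-free members, of which Hmgb2, a chromatin protein, fell, and in all members 0 rose and 1 fell of 9.

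**Figure D4:**
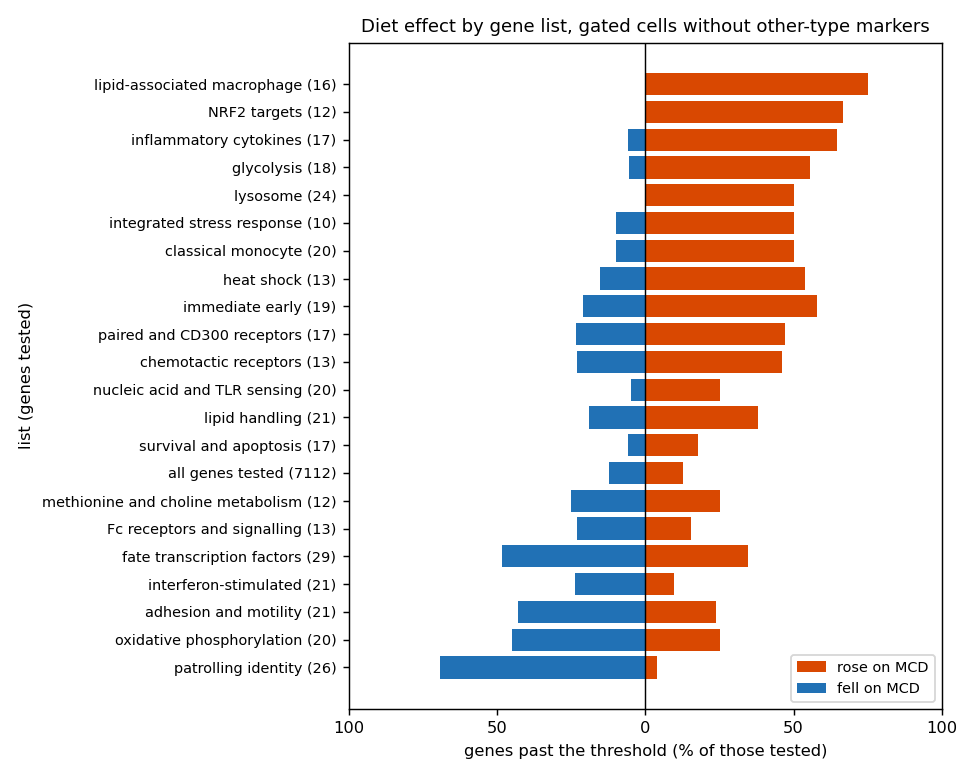
Percentage of the tested genes of each list that rose (right) or fell (left) on MCD in the marker-free members, for lists with at least 10 genes tested (number in brackets). Of all genes tested 12.8% rose and 12.4% fell, while 18 of 26 patrolling identity genes fell and 12 of 16 lipid-associated macrophage genes rose.

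The largest changes by rule differed between all members and the marker-free members. In all members the rises were led by Erdr1, Hp, Lars2, Ninj1, Trem1, Cmklr1, Slpi, Prdx5, Il1b, Nfkb2, Hmox1 and Maff, with log2 changes from 4.11 down to 2.91. Of these, 8 also lead the list of the marker-free members, which adds Cd177, Gpx4, Plk3 and Ier3. Ninj1, which ruptures the membrane of dying cells, stood at 32.0 and 17 normalised CPM on NCD and 235 and 259.8 normalised CPM on MCD in the members and rose by 3.39 ± 0.25 (adjusted p = 3.13e-04, edgeR). In all members Erdr1 lost its call without either NCD library, under DESeq2 and with the GC trend removed.

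The falls of all members were Elane, Lyve1, Hecw2, Serpinh1, Slc39a8, Gatm, Rasgrp3, Tanc1, Aass, Gng11, Tjp1 and Enpep. Elane is the neutrophil elastase gene and Lyve1 a gene of liver sinusoidal endothelium. Elane had 65 UMIs on NCD and 0 on MCD, at least 78.8-fold lower against a floor of 3 counts over the MCD libraries, and Lyve1 stood at 50.8 and 208 normalised CPM on NCD and 10.7 and 7.57 normalised CPM on MCD, with a change of -3.91 ± 0.57 (adjusted p = 0.00264, edgeR). Of the 12, 10 had too few UMIs to be tested in the marker-free members, Gng11 missed the threshold there and Gatm passed at -2.65 ± 0.53. All 8 endothelial markers fell in all members.

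In the marker-free members the named falls included Fabp1, Pecam1, Fabp4, Lepr, Nbn, Zfp36l1, Cbwd1, Amd1, Polr2l, Ets1 and Cd300e. Zfp36l1, which binds AU-rich mRNA and speeds its decay, stood at 1138 and 1228 normalised CPM on NCD and 156 and 191 normalised CPM on MCD and fell by 2.76 ± 0.14 (adjusted p = 2.82e-12, edgeR). Lepr, the leptin receptor, was at 202 and 91.2 on NCD and 20.8 and 19.9 on MCD and fell by 2.83 ± 0.30. Fabp1, a liver fatty acid binding protein, was at 123 and 32.6 on NCD and 0.534 and 0.765 on MCD. The 8 hepatocyte markers together ranged from 46.3 to 52.5 CPM on NCD and from 14.4 to 26.1 CPM on MCD. Among them Alb stood at 9.27 and 20.2 CPM on NCD and 4.20 and 17.3 CPM on MCD. The part of hepatocyte RNA in the Fabp1 change was not tested.

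The diet effect was set against that of the classical-gated cells of the same libraries in 1 model. Of 9238 genes tested 311 had a different diet effect, or 3.37%, with 267 more positive in the members (2.89%) and 44 more negative (0.476%). Between marker-free cells of both gates there were 287 of 8061, or 3.56%, with 204 more positive (2.53%) and 83 more negative (1.03%). With plain library totals the marker-free split became 92 more positive and 144 more negative. In the classical-gated cells themselves 34.3% of 10792 genes changed with the diet, and in their marker-free cells 26.9% of 10093. The members' count went down to 89 without MCD replicate 1.

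Zfp36l1 fell more in the patrolling gate. It stood at 973 and 1090.0 CPM on NCD and 176 and 211 CPM on MCD in the marker-free members. In all classical-gated cells, not filtered for other-type markers, it stood at 237 and 219.9 CPM on NCD and 130.2 and 112 CPM on MCD. The difference of the diet effects between marker-free cells of both gates was -2.10 ± 0.20 (adjusted p = 3.50e-09, edgeR). Pparg stood at 86.5 and 130.1 CPM on NCD and 43.8 and 43.0 CPM on MCD and 4.53 and 4.80 CPM on NCD and 9.07 and 8.80 CPM on MCD, with a difference of -2.36 ± 0.52 (adjusted p = 0.00449, edgeR). Both genes were far higher in the marker-free members than in the classical-gated cells on NCD, and the gap was smaller on MCD. The Pparg call was lost without NCD replicate 2 and with cells thinned to 1000 UMIs.

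Of the 26 identity genes tested for this difference between marker-free cells, 11 were more negative in the patrolling gate and 0 more positive, against 1.03% and 2.53% of all genes. Among the 11 were S1pr5 (-2.40 ± 0.62), Cd300ld (-1.49 ± 0.22), Lair1 (-1.25 ± 0.24), Fcgr4 (-1.01 ± 0.22) and Itgal (-0.62 ± 0.10). Itgal fell in the marker-free classical-gated cells too, at -0.87 ± 0.10 (adjusted p = 1.88e-04, edgeR), and Cd300ld was at 0.01 there (adjusted p = 0.991). The call on S1pr5 was lost without MCD replicate 2, without NCD replicate 1 and with cells thinned to 1000 UMIs. For Cd300e and Cx3cr1 the difference missed the threshold. In all members the count was 4 more negative and 3 more positive (all genes 0.476% and 2.89%). The 4 were S1pr5 (-1.67), Ceacam1 (-0.85), Cd300ld (-0.81) and Pou2f2 (-0.69), and the 3 were Cd300e (1.33), Cd274 (1.26) and Fabp4 (0.92). Cd300e changed by -3.24 in all classical-gated cells and by -1.95 in all members.

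On the positive side stood Ptafr, the receptor for platelet-activating factor, with a difference of 1.89 ± 0.26 (adjusted p = 6.33e-06, edgeR). It rose by 1.80 ± 0.23 in the marker-free members and had a value of -0.07 ± 0.12 in the marker-free classical-gated cells. Cxcl9 and Cxcl10, chemokines induced by interferon gamma, fell in the marker-free classical-gated cells (-2.37 ± 0.32 and -1.17 ± 0.11). Their values in the marker-free members were 0.18 ± 0.56 and 0.28 ± 0.41 and did not pass. S100a9 and S100a8 led the marker-free list at 7.81 ± 0.78 and 4.69 ± 0.67, yet S100a9 stood at 14.4 and 6.51 normalised CPM on NCD and 4.80 and 39.8 normalised CPM on MCD in the marker-free members, where the diets overlapped. S100a9 lost the call without NCD replicate 2 and S100a8 under DESeq2. Among lists, interferon-stimulated genes had 7 positive and 0 negative differences of 21 tested, inflammatory cytokine genes 7 and 1 of 19, oxidative phosphorylation genes 8 and 0 of 20, and glycolysis genes 0 and 0 of 18. Over all genes 2.53% were positive and 1.03% negative between marker-free cells, and 2.89% and 0.476% between all cells of the gates.

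**Figure D5:**
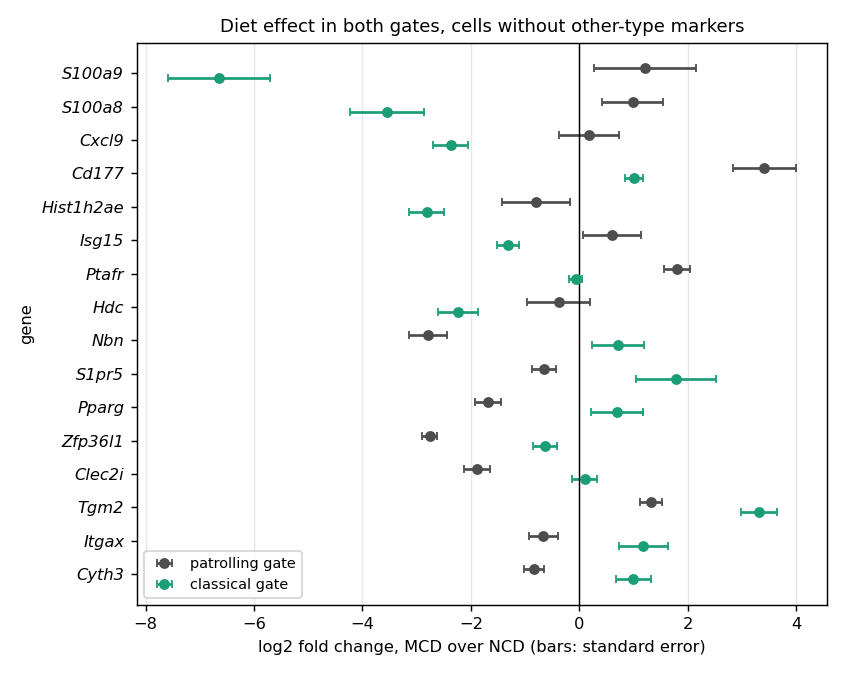
Log2 fold change on MCD (x axis, bars are standard errors from edgeR) in marker-free patrolling-gated and classical-gated cells for the named genes with a different diet effect. Zfp36l1 was at -2.76 ± 0.14 in the patrolling gate against -0.64 ± 0.22 in the classical gate.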

How the data were processed

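Single-cell RNA-seq of sorted liver cells gave 4 libraries, 2 per diet. The authors deposited UMI counts per gene and barcode, made with Cell Ranger 3.0.2 per the file headers and on mm10 per the submitters' processing notes. The gene table of MCD 1 listed 27998 genes and those of NCD 1, NCD 2 and MCD 2 listed 28692, so only the 27998 in common entered. No source used here says how doublets or free RNA were treated before deposit.

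Barcodes were filtered and gated as the report states. UMIs of gated cells were summed per library and tested with the edgeR quasi-likelihood F test (filterByExpr, TMM, Benjamini-Hochberg, threshold 0.05) in edgeR 4.0.16, limma 3.58.1 and R 4.3.3, with DESeq2 1.42.0 as an alternative. Single values were tested by exact permutation over libraries. The class-by-diet model took the patrolling-gated and classical-gated sums of each library. The mirrored classical gate needed Ly6c2, F13a1, Fn1 and Vcan at 0.1% of UMIs and above the patrolling genes. Python 3.11.15, numpy 2.4.6, scipy 1.17.1, pandas 2.3.3 and matplotlib 3.10.9 did the rest.

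Named diet genes were the 12 largest rises and 12 largest falls among called genes of at least 50 CPM in the higher diet whose diets did not overlap. For the difference between gates they were the 8 largest each way, and for members against other cells the 12 with the highest lowest-library ratio at 100 CPM or more. All identity genes and fate transcription factors could be named, and of other lists the 4 highest in CPM, the 3 largest called changes and those called against the majority. Applying the rule to the marker-free members was chosen after seeing the data, as were other genes named outside it. The members and lists were chosen with earlier results of these data known.

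The fit was tested on simulated data. For the diet effect in 1 class, over 8366 genes, 95.6% of changes of log2 2 and 42.6% of log2 1 were recovered with 6 false calls. For the class-by-diet term, over 9040 genes, these were 68.7% and 19.6% with 3 false calls. The simulation gave every gene the same fixed dispersion and changed few genes, 90 by log2 2 and 94 by log2 1 in the diet fit. It held no mixture of cell types, GC trend or mitochondrial gap between the diets. Its false calls are therefore not an error rate for the calls reported here. Alternatives covered scaling, tool, low-count filter, depth, gate, mitochondrial limit, GC trend, replicate block and each library left out. Intervals and floors cover counting error only. Some genes that the rule names are not reported here.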

Additional observations from a re-analysis of the deposited data

Results flagged for a closer look

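The diet effect of 16 named genes differed between the patrolling-gated and the classical-gated cells of the same libraries, by the class-by-diet term of the edgeR quasi-likelihood model over all members. Values are log2 differences of the diet effects, members minus classical-gated cells, each with an adjusted p below 0.05 over 9238 genes, of which 311 passed.

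More positive in the members were S100a9 at 3.03, Cxcl9 at 1.94, Cd177 at 1.73, Aif1 at 1.69, Cxcl10 at 1.63, Retnlg at 1.61, Gapt at 1.57 and Ptafr at 1.56. S100a9, Cd177 and Retnlg are made by neutrophils, whose summed markers ranged from 14771 to 22929 CPM in the members on NCD and from 1275 to 7555 CPM on MCD. Cells led by neutrophil markers numbered 28 and 12 on NCD and 107 and 85 on MCD, and the part of these cells was not tested. S100a9, Cxcl9, Cd177 and Gapt missed the threshold without MCD replicate 1, Cxcl10 without MCD replicate 2, and Cd177 and Gapt without NCD replicate 2. Gapt and Retnlg also missed it in marker-free cells, and S100a9 under DESeq2.

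More negative were Wfdc21 at -3.66, Cd63 at -1.80, Pparg at -1.77, S1pr5 at -1.67, Clec2i at -1.55, Smpdl3b at -1.18, Chd7 at -1.18 and Zfp36l1 at -1.14. Cd63 and S1pr5 missed the threshold without MCD replicate 2 and without either NCD library, and Pparg without MCD replicate 1 and without either NCD library. Wfdc21 missed it without NCD replicate 1 and with the GC trend removed, and Chd7 without NCD replicate 2. Cd63 and Chd7 also missed it in marker-free cells. Ptafr and Zfp36l1 kept the call in every alternative of this model but 1, the limit of 5% mitochondrial UMIs.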

How the results depend on the processing

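With 2 libraries per diet, precision rests on few libraries, and NCD cells were shallow. The count of diet genes in the members was 2572, and became 1299 with DESeq2, 438 at 5% mitochondrial UMIs, 1341 with cells thinned to 1000 UMIs and 955 with the gate at 0.2%. Leaving out each library gave 1052 to 2048, lowest without NCD replicate 2. In classical-gated cells 3705 became 243 at 5% mitochondrial UMIs and 1805 with thinned cells, and 1547 to 3176 with a library left out. The count of genes that differed between the gates, 311, became 105, 142, 83 and 169 at 5% mitochondrial UMIs, with thinned cells, with the gate at 0.2% and with sums thinned to the smallest library, and 89 to 428 with a library left out. In marker-free members 1796 became 861 with DESeq2, 734 with thinned cells and 1224 to 1443 with a library left out, and the 287 between gates became 125 with thinned cells and 204 to 336. The 1087 members became 470 with the gate at 0.2%, 640 without other-type markers and 516 at 5% mitochondrial UMIs. The cause was not tested.

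With plain library totals the 311 differences between gates split into 153 positive and 131 negative. Where a left-out library leaves 1 per diet, it is assumed to vary like the other diet's libraries. Samples shared only a number. Same-numbered libraries deviated together with r = 0.182 over 6315 genes, and the replicate block gave 3301 diet genes in the members, 4202 in classical-gated cells and 1852 in marker-free members.

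Signs turned in these cases. At 5% mitochondrial UMIs the members' diet effect became 0.0022 for Rasgrp3, 0.0012 for Gng11, -0.15 for Plk3, -0.058 for Ier3, 0.50 for Cx3cr1, 0.19 for Cd300ld, 0.025 for Adgre4, 0.14 for Dusp16, 0.067 for Hes1, 0.16 for Hfe, 0.046 for Clec4a1, 0.053 for Tcf7l2, 0.68 for Bcl6 and 0.041 for Klf4. The difference between gates became -12.11 for S100a9, -0.94 for Cd177, -0.74 for Cxcl10, -10.75 for Retnlg, -0.97 for Gapt, -0.16 for Ptafr and 1.18 for Smpdl3b. With the gate at 0.2% it became -1.14 for Cxcl9 and -7.38 for Retnlg, and with thinned cells -1.12 for Retnlg. With thinned cells the members' diet effect of Klf2 became 0.46 and passed the threshold (adjusted p = 0.0441, edgeR). In marker-free members Nr4a1 became -0.12 and Cebpb -0.11 with the GC trend removed, and Ccl5 ranged from -4.17 to 1.77 with a library left out, turning sign without NCD replicate 1. Unthinned, the share of cells with a UMI was 23.8 percentage points higher on MCD for Cx3cr1 and 4.26 for Itgal. Over 148 named gene values in the members and between gates, 2164 alternative values kept direction and side of the threshold, 225 lost the call, 7 gained it and 25 turned sign. At the limit of 5% mitochondrial UMIs 57 kept both, 44 lost the call and 21 turned sign.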
